A study of Arabidopsis thaliana with 21 samples.

Results

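A set of 178 probe sets was described whose mean signal in Arabidopsis thaliana rosettes was higher in the gibberellin line GA20OX1-OE than in both ga20ox1 and Col-0, and higher in aba2/GA20OX1-OE than in aba2/ga20ox1. They were 178 of 22746 probe sets, a probe set being the group of short probes on an Affymetrix array that reports 1 transcript or a few similar ones. A probe set was a member where each of these 3 differences between group means was 0.5 or more on the log2 scale and its mean log2 signal over all 21 arrays was 7 or more. Symbols beginning with EXP, EXL, SWEET, UGT or CYP, the gene QQS and 1 further probe set were set aside by name, which removed QQS alone. Of the 11945 probe sets with a mean of 7 or more, 568 passed the first difference, 773 the second and 1294 the third, and the members made up 1.49%. The members were thus chosen by the measured group means of these 5 genotypes, and the 3 differences are given below as a description with no test.

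The arrays measured total RNA from the aerial parts of soil-grown plants at an age of 21 days, with 3 arrays for each of 7 genotypes, all in the Col-0 background. The groups were GA20OX1-OE, the mutant ga20ox1 and the wild type Col-0, then the combinations aba2/GA20OX1-OE and aba2/ga20ox1, which both carry the aba2 mutation, and then the mutant aba2 and the line ABA2-OE. OE commonly stands for overexpression, and the promoters of both transgenes and the number of independent lines were not given in the sources used here. Nothing in the labels says that replicate arrays hold RNA of separate plants, so a p-value here speaks of the spread between arrays alone, which may be technical. The levels of GA20OX1 and ABA2 were not analysed here, because the annotation used names no probe set for either.

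GA20OX1 encodes a gibberellin 20-oxidase, an enzyme of the later steps of gibberellin synthesis, and gibberellin promotes growth through the receptor GID1, which leads to breakdown of the DELLA growth repressors. ABA2 encodes a short-chain dehydrogenase in the synthesis of abscisic acid, a hormone of stress responses and dormancy that often acts against gibberellin. Plants that lack ABA2 are small and wilt readily, and plants with more GA20OX activity are tall and pale.

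Of the 178 members, 91 were annotated with 1 gene, 5 with several genes and 82 were not listed in the annotation used. The 91 genes were all different, and 18 of them had a symbol of their own, the other 73 being known by a locus code. Of the 178 probe sets, 5 were of the kind that can match more than 1 transcript. Of the 18 genes, sorted by role after their values had been seen, 6 act on chromatin, DNA or RNA in the nucleus: INO80 and CHR17, which remodel nucleosomes, DME, a DNA glycosylase that removes methylated cytosine, PRL, the MCM7 subunit of the replicative helicase, the helicase NIH and the chromatin protein 3xHMG-box2. Another 4 belong to the plastid, namely CFM3A and CFM3B, of the CRM-domain family that acts in chloroplast intron splicing, the chaperonin subunit Cpn60beta3 and the plastid-encoded ribosomal protein rpl22. Cell wall and cell surface genes were SKU5, a glycoprotein required for directional growth, CSLA03, of the family that makes mannans, and TBL37, of a family that acetylates wall polymers. ATSPS4F makes the phosphorylated precursor of sucrose and CCT2 acts in phosphatidylcholine synthesis. IQD30 has a calmodulin-binding motif, KICP-02 is a kinesin-like protein and TTL is a TITAN-like gene. Only 2 pairs of the 91 genes lay within 5 genes of each other in the RefSeq annotation TAIR10.1, AT5G22430 with AT5G22460 (2 genes between them) and AT5G55040 with AT5G55100 (5 genes between them).

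The working name of the set was genes that rise with GA20OX1 dose throughout, and the order of the genotypes went against it in Col-0. The mean of Col-0 lay between those of GA20OX1-OE and ga20ox1 in 84 of 178 members, and ga20ox1 was below Col-0 in those same 84 and above it in the rest. The median difference ga20ox1 minus Col-0 over the members was 0.01, with a range of -1.19 to 0.82. In the aba2 background aba2 lay between aba2/GA20OX1-OE and aba2/ga20ox1 in 167 members. The rule held Col-0 at least 0.5 below GA20OX1-OE, while aba2 was in none of its differences. It also held aba2/GA20OX1-OE and aba2/ga20ox1 at least 0.5 apart. These counts thus follow in part from the rule, and nothing is read from their contrast. Both orders held in 81. The members are therefore called by their rule: higher in both GA20OX1-OE lines.

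By level, the members were of moderate signal. Their means over 21 arrays ran from 7.0 to 11.89 with a median of 7.89, against a median of 8.95 over all probe sets with a mean of 7 or more. Of the 178, 101 had a mean under 8 and 12 had a mean of 10 or more. SKU5 had the highest mean, 11.89.

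Over the members the median difference was 0.69 for GA20OX1-OE minus ga20ox1, 0.70 for GA20OX1-OE minus Col-0 and 0.78 for aba2/GA20OX1-OE minus aba2/ga20ox1. Over all 15923 probe sets tested the medians were 0.06, 0.09 and 0.11. A difference of 1 or more, at least a doubling, was reached by 18, 14 and 37 members in the 3 comparisons, and by 3 in all of them, AT1G65010, 258392_at and AT1G66850, the last against near-background signals in ga20ox1 and Col-0. The difference was larger in the aba2 background than between GA20OX1-OE and ga20ox1 in 114 members and smaller in 64. The median over all tested probe sets was also larger there, 0.11 against 0.06. With the array median in the fit, as given below, the members' medians were 0.06 in the aba2 background and 0.32 for GA20OX1-OE minus ga20ox1. The highest genotype mean was that of GA20OX1-OE in 135 members, of aba2/GA20OX1-OE in 40 and of ABA2-OE in 3. The lowest was that of ABA2-OE in 106, aba2/ga20ox1 in 51, ga20ox1 in 11, Col-0 in 9 and aba2 in 1.

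The array values of the whole set showed wide spread within genotypes. Each member was centred on its own mean over the genotypes and the median over the 178 was taken per array. In GA20OX1-OE this level was 0.70, 0.51 and 0.76, against -0.59, -0.06 and 0.52 in ga20ox1 and -0.26, -0.40 and 0.49 in Col-0. Replicate 3 of ga20ox1 and of Col-0 thus lay at the level of GA20OX1-OE, while replicates 1 and 2 of each lay lower. In aba2/GA20OX1-OE the level was 0.24, 0.04 and 0.93, against -0.32, -0.16 and -0.62 in aba2/ga20ox1, and these groups did not overlap. In aba2 it was -0.23, 0.05 and 0.39, against -0.42, -0.59 and -0.67 in ABA2-OE, also without overlap.

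**Figure D1:**
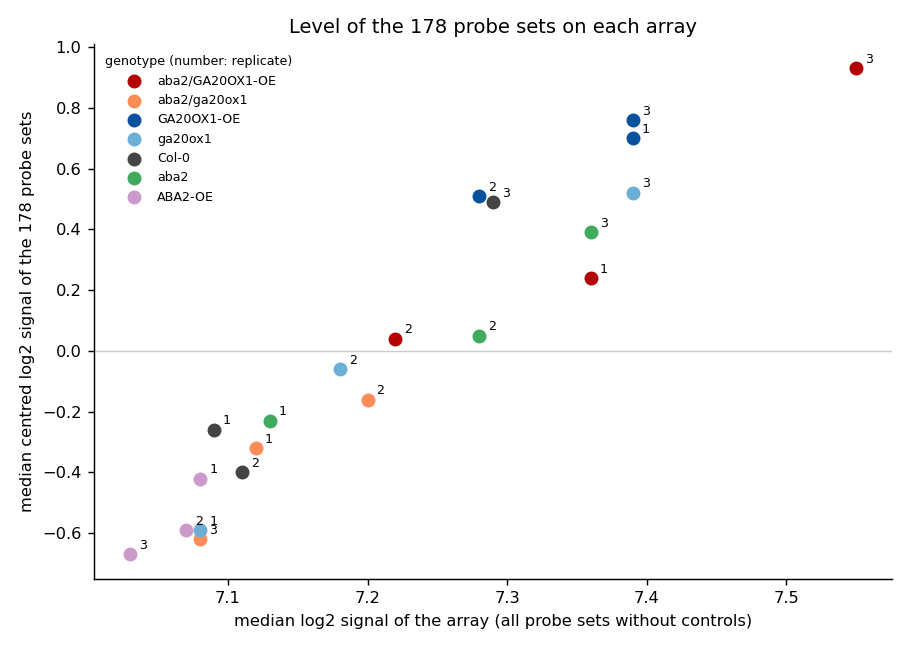
Median centred log2 signal of the 178 probe sets (y axis) against the median log2 signal of the whole array (x axis), with each point 1 of the 21 arrays, the colour its genotype and the number its replicate. Replicate 3 of ga20ox1 (0.52) and of Col-0 (0.49) sit beside the GA20OX1-OE arrays (0.51 to 0.76), and brighter arrays lie higher, up to aba2/GA20OX1-OE replicate 3 at 0.93.

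These levels moved with the overall brightness of the arrays. The median log2 signal of an array was 7.39, 7.28 and 7.39 in GA20OX1-OE, against 7.08, 7.18 and 7.39 in ga20ox1 and 7.09, 7.11 and 7.29 in Col-0. It was 7.36, 7.22 and 7.55 in aba2/GA20OX1-OE, against 7.12, 7.20 and 7.08 in aba2/ga20ox1. In 5 of 7 genotypes the members' level put the 3 arrays in the same order as the array median did, and in 6 of 7 the same array was highest. Deviations from the genotype means were not used by the rule. Within genotypes a member's signal changed by a median of 2.89 log2 units per log2 unit of array median, with a positive slope in 169 of 178, against a median of 0.22 and 57.3% positive over all probe sets with a mean of 7 or more. The median correlation between 2 members' deviations over the 21 arrays was 0.59, against 0.01 between 2 probe sets of that background. The pairs share arrays and their brightness. The ratio of 3′ to 5′ GAPDH control signals, a sign of RNA and labelling quality, was 1.08 to 1.11 in GA20OX1-OE, against 1.19 to 1.52 in ga20ox1 and 1.21 to 1.69 in Col-0. It was 0.92 to 1.54 in aba2/GA20OX1-OE and 1.11 to 1.21 in aba2/ga20ox1. Within genotypes the array with the highest ratio also had the highest members' level, as in replicate 3 of ga20ox1 (1.52) and of Col-0 (1.69). The exception was ABA2-OE, where replicate 3 had the highest ratio (1.46) and the lowest level. The same ratio for actin was 11.9 to 12.34 in GA20OX1-OE, against 10.73 to 15.28 in ga20ox1 and 14.2 to 15.76 in Col-0. It was 8.59 to 17.47 in aba2/GA20OX1-OE and 9.2 to 13.07 in aba2/ga20ox1. Within genotypes the array with the highest actin ratio had the highest members' level in aba2 alone (replicate 3, 14.0). That array had the lowest level in aba2/GA20OX1-OE (replicate 2, 17.47), Col-0 (replicate 2, 15.76) and ABA2-OE (replicate 3, 12.14). The part that array brightness or RNA quality has in the members' differences was not tested.

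With the array median as a covariate in the fit, an alternative added after seeing the data, the members' median differences were 0.32, 0.15 and 0.06 in the order given above, and they were positive in 166, 130 and 100 members. The rule was then met by 73 probe sets, of which 21 were among the 178. Quantile normalization left medians of 0.60, 0.57 and 0.65, all 178 positive in each, and 83 of the 178 met the rule. Scaling every array to the same median log2 signal left 48 probe sets that met the rule, all of them members.

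**Figure D2:**
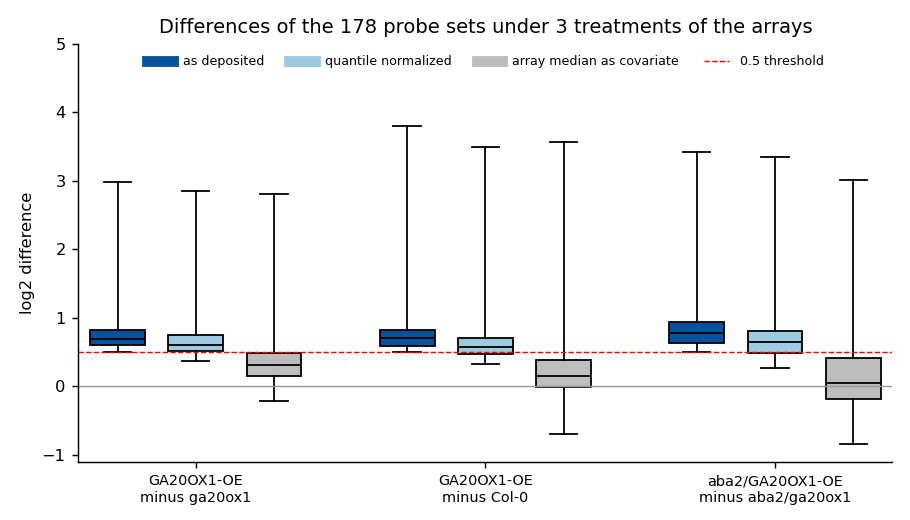
Log2 differences of the 178 probe sets (y axis) in the 3 comparisons of the rule (x axis), as deposited, after quantile normalization and with the array median as covariate, with boxes from the 25th to the 75th percentile, the median as a line and whiskers to the lowest and highest value. The medians with the covariate were 0.32, 0.15 and 0.06, under the 0.5 threshold (dashed), and the highest whiskers of the first 2 comparisons as deposited are AT1G66850, which was near background in ga20ox1 and Col-0.

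The arrays of GA20OX1-OE and ga20ox1 did not overlap in 82 of 178 members, where 8.71% of all 11945 probe sets with a mean of 7 or more had GA20OX1-OE above ga20ox1 without overlap. For GA20OX1-OE above Col-0 it was 69 (10.8% of all), for aba2/GA20OX1-OE above aba2/ga20ox1 109 (14.5% of all) and for all 3 together 37 (1.31% of all). The rule used these comparisons, so nothing is read from the counts. Without replicate 3 of Col-0 and of ga20ox1, left out after seeing the data, they were 171, 160, 109 and 98, against 24.1%, 25.5%, 14.5% and 5.3% of all those probe sets.

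The largest member by its smallest difference was AT1G66850, at 10.54, 11.52 and 10.77 in aba2/GA20OX1-OE, against 8.50, 7.79 and 9.10 in aba2/ga20ox1 (log2 signal). In GA20OX1-OE it was 7.70, 5.54 and 7.54, against 5.33, 2.06 and 4.46 in ga20ox1 and 0.82, 6.04 and 2.51 in Col-0. Both aba2 combinations lay above GA20OX1-OE, ga20ox1 and Col-0 on every array, and the means of ga20ox1 (3.95) and Col-0 (3.12) lay under 5.26, the low-signal bound of the fit, so no fold is given against them. AT5G22430, a gene in the pair of near neighbours, was at 10.83, 11.20 and 10.89 in aba2/GA20OX1-OE, against 9.89, 9.38 and 10.46 in aba2/ga20ox1. Its values were 9.02, 6.63 and 7.82 in GA20OX1-OE, against 6.96, 5.06 and 7.22 in ga20ox1 and 5.58, 7.66 and 7.27 in Col-0. Its groups overlapped in GA20OX1-OE and not in the aba2 background. AT2G20870 (1.94, 0.75 and 1.10 for the 3 differences) and AT3G28500 (1.05, 0.58 and 1.28) were likewise highest in aba2/GA20OX1-OE, with means of 12.17 ± 0.10 and 11.35 ± 0.24 there, against 11.07 ± 0.40 and 10.06 ± 0.36 in aba2/ga20ox1 (SD, n = 3 each). Their GA20OX1-OE arrays spread widely, from 7.75 to 10.59 for AT2G20870 and from 8.76 to 10.43 for AT3G28500.

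The flower marker ATA27, which is expressed in the anther, had its highest signals in the same line. Its linear signal was 776 to 1333 in aba2/GA20OX1-OE, against 82.8 to 239.6 in aba2/ga20ox1, and 11.1 to 157.3 in GA20OX1-OE, against 1.26 to 15.6 in ga20ox1 and 3.29 to 21.5 in Col-0. On the log2 scale every ga20ox1 and Col-0 array (means 2.35 and 3.15) and GA20OX1-OE replicate 2 (3.47) lay under the low-signal bound of 5.26. Differences against those groups are thus near background. ATA27 was 1 of 12 listed flower markers and the only one named by the annotation. It was not called in any of the 3 comparisons (adjusted p 0.27, 0.34 and 0.11). In aba2 it was 40.2 to 685.2, against 13.6 to 72.5 in ABA2-OE. The member 258392_at was annotated with AT3G15395 and with ATA20, a symbol of the same ATA series that was not on the list. Its mean log2 signal was 10.74 in aba2/GA20OX1-OE, against 8.61 in aba2/ga20ox1, and it met the rule with the array median as covariate. It was 2.08 higher in aba2 than in ABA2-OE (adjusted p 0.00196 by limma). The part that flower tissue in the aerial samples has in these members was not tested, and in whole aerial parts fewer cells of a type and less RNA per cell cannot be told apart.

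Among the cell wall and cell surface genes, SKU5 was at 12.69, 12.39 and 12.75 in GA20OX1-OE, against 11.77, 12.18 and 11.69 in ga20ox1 and 11.55, 11.92 and 12.05 in Col-0. In aba2/GA20OX1-OE it was 11.92, 12.04 and 12.29, against 11.07, 11.19 and 11.30 in aba2/ga20ox1. No arrays overlapped in any of the 3 comparisons, and its differences of 0.73, 0.77 and 0.90 were 0.62, 0.62 and 0.71 with the array median as covariate. TBL37 was at 8.41, 8.61 and 8.60 in GA20OX1-OE, against 7.56, 7.72 and 8.05 in ga20ox1 and 8.07, 7.92 and 7.90 in Col-0. Its aba2/GA20OX1-OE arrays (8.11, 8.34 and 8.52) also lay above all aba2/ga20ox1 arrays (7.29, 7.46 and 7.85). CSLA03 averaged 8.89 ± 0.13 in GA20OX1-OE, against 8.36 ± 0.39 in ga20ox1 and 8.35 ± 0.61 in Col-0, and its Col-0 replicate 3, at 9.01, was above every GA20OX1-OE array.

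**Figure D3:**
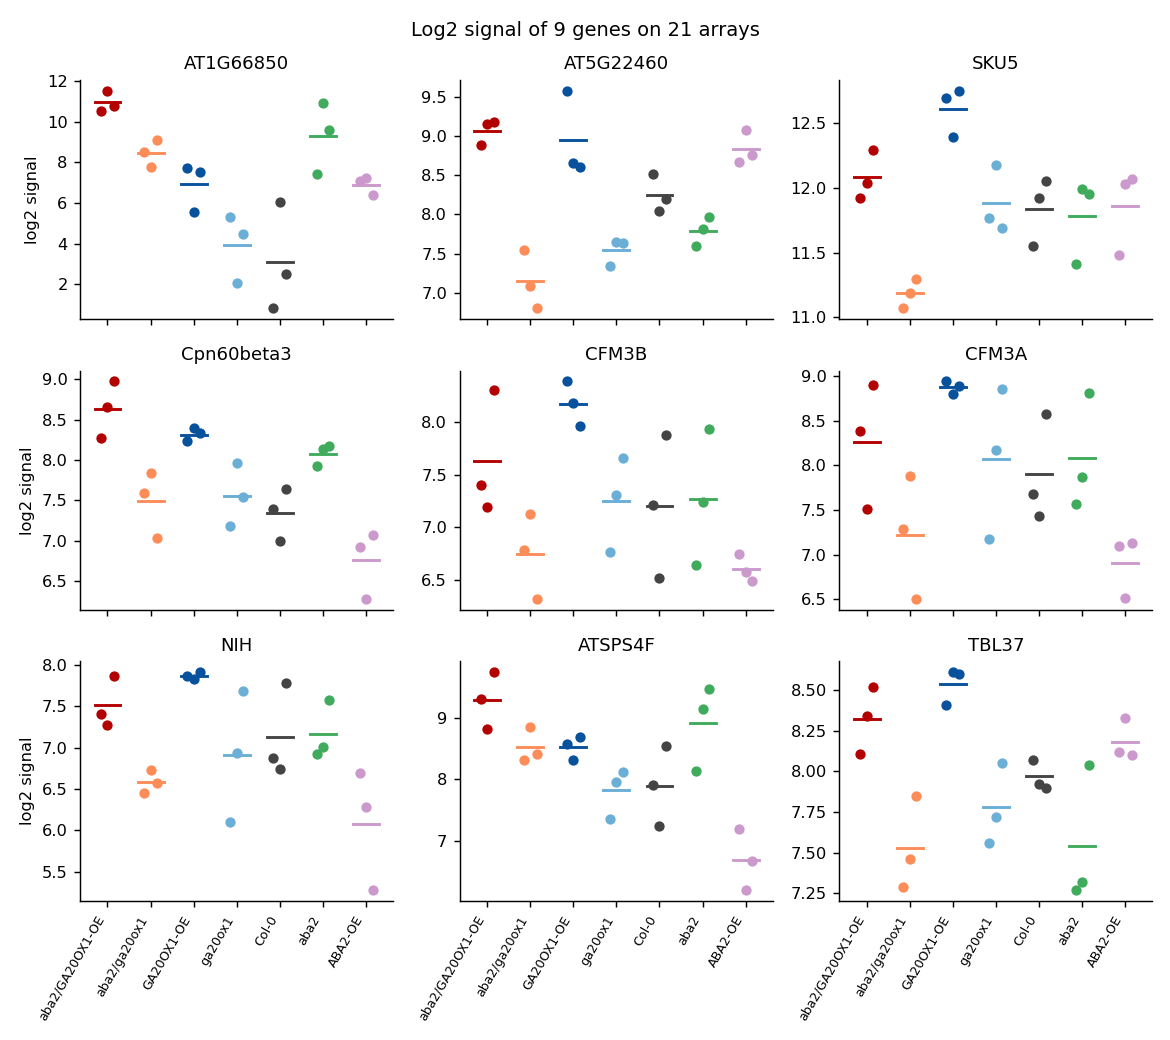
Log2 signal (y axis) of 9 named members on each of the 21 arrays, by genotype (x axis), with each point 1 array and the bar the genotype mean. SKU5 and Cpn60beta3 separate the GA20OX1-OE arrays from ga20ox1 and Col-0, and in CFM3A replicate 3 of ga20ox1 (8.86) lies within the range of the GA20OX1-OE arrays (8.80 to 8.94).

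Of the plastid genes, Cpn60beta3 was at 8.23, 8.39 and 8.33 in GA20OX1-OE, against 7.19, 7.96 and 7.54 in ga20ox1 and 7.39, 7.0 and 7.64 in Col-0. In aba2/GA20OX1-OE it was 8.27, 8.66 and 8.97, against 7.59, 7.84 and 7.04 in aba2/ga20ox1. The groups did not overlap, and with the array median as covariate its differences were 0.60, 0.76 and 0.87. The plastid transcript rpl22 was at 12.52, 12.45 and 12.54 in GA20OX1-OE, against 11.14, 11.44 and 12.21 in ga20ox1 and 11.37, 11.45 and 11.34 in Col-0, and its difference in the aba2 background fell to 0.01 with the covariate, against 0.56 without it. CFM3B was at 8.38, 8.18 and 7.96 in GA20OX1-OE, against 6.77, 7.31 and 7.66 in ga20ox1 and 7.21, 6.52 and 7.87 in Col-0. Its arrays did not overlap in any of the 3 comparisons. The paralog CFM3A was at 8.94, 8.80 and 8.89 in GA20OX1-OE, against 7.17, 8.17 and 8.86 in ga20ox1 and 7.68, 7.43 and 8.58 in Col-0, where GA20OX1-OE overlapped with ga20ox1 and not with Col-0. In aba2/GA20OX1-OE it was 8.38, 7.51 and 8.90, against 7.29, 7.88 and 6.50 in aba2/ga20ox1, also with overlap. With the covariate both genes came to 0.43 or less in every comparison.

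Among the chromatin and nucleic acid genes, NIH was at 7.86, 7.83 and 7.91 in GA20OX1-OE, against 6.10, 6.93 and 7.69 in ga20ox1 and 6.87, 6.74 and 7.78 in Col-0. In aba2/GA20OX1-OE it was 7.41, 7.27 and 7.86, against 6.45, 6.73 and 6.57 in aba2/ga20ox1. All arrays separated, though narrowly from Col-0 replicate 3. 3xHMG-box2 was at 9.30, 9.09 and 9.28 in GA20OX1-OE, against 7.27, 8.16 and 9.26 in ga20ox1 and 8.37, 7.91 and 9.18 in Col-0, so that replicate 3 of ga20ox1 and of Col-0 lay inside the GA20OX1-OE range. INO80, CHR17 and DME had differences from 0.53 to 0.94, and all 9 values of these genes were below 0 with the array median as covariate, from -0.33 to -0.04. PRL kept 0.35, 0.27 and 0.35.

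The other large members by the smallest difference were known by locus code, and few kept their differences with the array median as covariate. AT1G65010 was at 8.32, 8.35 and 8.76 in GA20OX1-OE, against 6.07, 7.36 and 8.82 in ga20ox1 and 6.82, 6.23 and 8.78 in Col-0, with differences of 1.06, 1.20 and 1.42 that became 0.04, -0.22 and -0.40 with the covariate. AT5G40450, AT3G45850, AT5G55660, AT1G17360, AT1G22060, AT1G19835, AT5G55040, AT4G32190 and AT3G52170 had smallest differences from 0.71 to 0.91 and none of them met the rule with the covariate. AT1G26520 came closest, at 0.75, 0.77 and 0.43. Its arrays, 7.64, 7.91 and 7.65 in GA20OX1-OE, against 6.61, 6.66 and 7.01 in ga20ox1 and 6.33, 6.79 and 6.83 in Col-0, did not overlap. Of the probe sets with no gene name, 253309_at was at 10.16, 10.44 and 10.60 in aba2/GA20OX1-OE, against 7.0, 6.71 and 7.20 in aba2/ga20ox1. It was at 9.19, 7.21 and 8.33 in GA20OX1-OE, against 6.59, 6.18 and 6.98 in ga20ox1 and 7.26, 7.28 and 7.31 in Col-0, and its difference of 3.43 in the aba2 background was the largest of all members there. 261701_at and 250233_at had smallest differences of 0.84 and 0.83.

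At the threshold, the members just inside were AT1G70100 (0.842, 0.899 and 0.501), AT2G01100 (0.841, 0.503 and 0.543) and AT5G50740 (0.623, 0.507 and 0.717). Just outside were AT5G43560, whose GA20OX1-OE minus Col-0 difference fell short of the threshold before rounding, BIM1 (0.780, 0.499 and 0.674) and AT1G04780 (0.660, 0.582 and 0.497). A further count of 128 probe sets missed the rule in 1 difference alone, at 0.4 to 0.5.

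The 21 members that met the rule with the array median as covariate held 10 named genes, AT1G66850, AT5G22430, AT2G20870, Cpn60beta3, SKU5, AT5G22460, AT3G06160, AT3G53980, AT1G20823 and AT3G28500. AT5G22460 was at 9.58, 8.66 and 8.61 in GA20OX1-OE, against 7.34, 7.65 and 7.63 in ga20ox1 and 8.52, 8.04 and 8.20 in Col-0. In aba2/GA20OX1-OE it was 8.88, 9.15 and 9.18, against 7.55, 7.09 and 6.80 in aba2/ga20ox1. The groups did not overlap, Col-0 lay between GA20OX1-OE and ga20ox1, and its differences were 1.41, 0.70 and 1.92 as deposited and 1.31, 0.56 and 1.75 with the covariate. AT3G06160 averaged 7.80 ± 0.10 in GA20OX1-OE, against 7.01 ± 0.34 in ga20ox1 and 7.13 ± 0.44 in Col-0, and 7.64 ± 0.23 in aba2/GA20OX1-OE, against 6.58 ± 0.15 in aba2/ga20ox1 (SD, n = 3 each). Of the 21 members, 8 had arrays that did not overlap in all 3 comparisons.

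The named members spanned long genes. Their median gene span in the RefSeq annotation TAIR10.1, introns included, was 3881 bases, with a range of 483 to 11239, against 2325 bases over the 6355 named probe sets with a mean of 7 or more. Of the 91 genes, 62 (68.1%) were longer than 3193.5 bases, the bound of the longest 25% of those probe sets, and 9 were shorter than 1719, the bound of the shortest 25%. The 10 named members that met the rule with the covariate had a median span of 1085 bases, the others 4145. Gene span was known for 91 of 178 members only, so as a check over the whole set it is void, and the values describe the named genes. Over all named probe sets the median difference was higher in long genes. GA20OX1-OE minus ga20ox1 had a median of 0.15 in the longest 25% and -0.08 in the shortest, GA20OX1-OE minus Col-0 0.23 and -0.14, and aba2/GA20OX1-OE minus aba2/ga20ox1 0.26 and -0.14. The slope on the array median had a median of 1.06 in the longest 25% and -0.39 in the shortest.

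**Figure D4:**
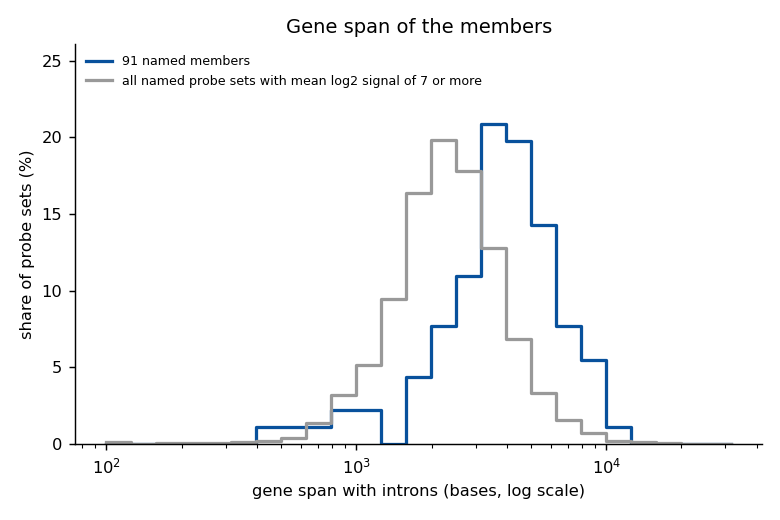
Share of probe sets (y axis, percent) by gene span with introns in bases (x axis, log scale), for the 91 named members and for all 6355 named probe sets with a mean log2 signal of 7 or more. The members' curve lies to the right, with a median of 3881 bases against 2325.

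The comparison of aba2 with ABA2-OE asked how the members stood where the state of ABA2 differed and that of GA20OX1 did not, on arrays that the rule used only in the mean over 21 arrays. Of 178 members, 45 (25.3%) were higher in aba2 by limma at an adjusted p under 0.05, and 10 (5.62%) were lower. Over all 15923 probe sets tested the shares were 8.5% higher and 5.27% lower, and 9.78% and 6.25% among those with a mean of 7 or more, so the share of members lower in aba2 was near that of all probe sets. The median difference over the members was 0.64, with 152 of 178 above 0, against a median of 0.09 and 58.7% above 0 over all tested. The arrays of aba2 lay above those of ABA2-OE without overlap in 87 members, against 25.2% of all probe sets with a mean of 7 or more. With the array median as covariate 8 members (4.49%) were higher and 9 (5.06%) lower, near the 3.33% and 3.62% of all tested. The members' median was then 0.03, against 0.01 over all tested, and 95 of 178 were above 0, against 51.5% of all tested. After quantile normalization 28 (15.7%) were higher and 11 (6.18%) lower, against 6.24% and 6.32% of all tested. Without aba2 replicate 3, an array with a high members' level, 8 (4.49%) were higher, against 2.95% of all tested. Leaving out aba2 replicate 2 gave 17 (9.55%), against 3.41% of all tested. Leaving out ABA2-OE replicate 1, 2 or 3 gave 28, 20 and 22 (15.7%, 11.2% and 12.4%), against 5.07%, 4.65% and 6.3% of all tested.

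Over all probe sets 1353 were higher and 839 lower in aba2 than in ABA2-OE, and this split depended on the scaling, with 994 and 1007 after quantile normalization and 672 and 1331 with every array at the same median. The median log2 signal of the arrays was 7.13, 7.28 and 7.36 in aba2, against 7.08, 7.07 and 7.03 in ABA2-OE, and the GAPDH 3′ to 5′ ratio 1.07 to 1.32 in aba2, against 1.29 to 1.46 in ABA2-OE. The actin 3′ to 5′ ratio went the other way, at 9.78, 11.25 and 14.0 in aba2, against 8.71, 10.59 and 12.14 in ABA2-OE, with overlap. In the longest 25% of named genes the median difference was 0.35 and in the shortest -0.12. All 5 annotated abscisic acid response genes were lower in aba2 (median -1.98).

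Of the 91 named members, 16 were higher in aba2 and 4 lower, where 8.5% and 5.27% of all tested probe sets were. The 4 lower ones were near the share of all tested, so nothing is read from their number. ATSPS4F had the largest rise among them, at 8.13, 9.15 and 9.47 in aba2, against 7.19, 6.19 and 6.66 in ABA2-OE (2.24 ± 0.34 SE, adjusted p 0.000167). Cpn60beta3 was at 7.92, 8.13 and 8.17 in aba2, against 6.93, 6.28 and 7.07 in ABA2-OE (1.31 ± 0.25 SE, adjusted p 0.00151), and rpl22 at 11.50, 12.23 and 12.66, against 10.67, 10.72 and 10.87 (1.37 ± 0.25 SE, adjusted p 0.00102). The groups did not overlap in any of these genes, and each kept its call under every alternative tried. AT1G01320 (1.58) did so too. AT4G16660, AT1G48650, AT4G28080, AT3G52170 and AT5G02830 rose by 1.11 to 1.40 and lost their call in 2 to 5 alternatives each. NIH, 1.08 higher with an adjusted p of 0.0475, lost it in 21 of 32, where its adjusted p went up to 0.44.

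The 4 named genes that fell in aba2 were AT3G53980, AT1G20823, AT5G22460 and TBL37. AT5G22460 was at 7.60, 7.81 and 7.97 in aba2, against 8.67, 9.08 and 8.76 in ABA2-OE (-1.04 ± 0.23 SE, adjusted p 0.00493), and kept its call under every alternative. AT3G53980 was at 6.97, 7.12 and 6.35 in aba2, against 8.24, 8.42 and 7.59 in ABA2-OE (-1.27 ± 0.32 SE, adjusted p 0.0116), and lost its call in 3 alternatives, with an adjusted p up to 0.079. AT1G20823 fell by 1.09 on the log2 scale (adjusted p 0.016) and TBL37 by 0.64 (adjusted p 0.0379), with adjusted p-values up to 0.12 and 0.16 in the alternatives. Of these 4, 3 were also among the 21 of 178 members that met the rule with the covariate. So were 7 of the 10 lower calls in all and 3 of the 45 higher ones. Both the rule with the covariate and this comparison depend on a member's slope on the array median, so nothing is read from these counts. In ABA2-OE AT5G22460 averaged 8.84 ± 0.22, beside 8.95 ± 0.54 in GA20OX1-OE and 8.25 ± 0.25 in Col-0 (SD, n = 3 each).

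**Figure D5:**
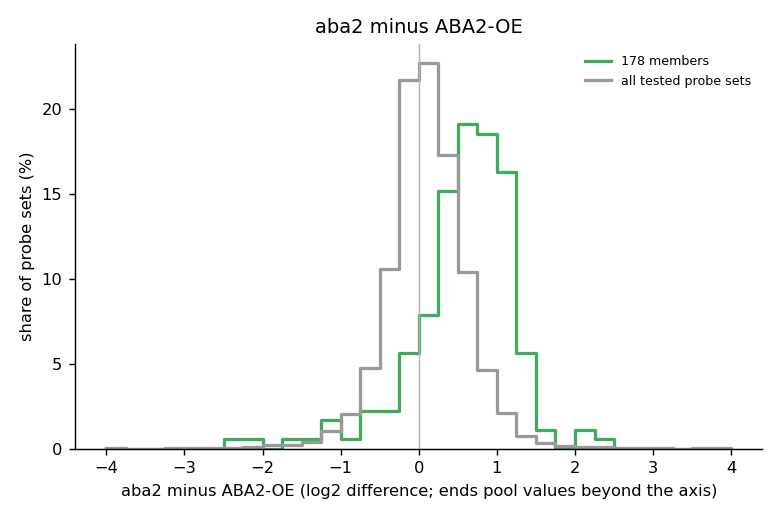
Share of probe sets (y axis, percent) by the log2 difference aba2 minus ABA2-OE (x axis), for the 178 members and for all tested probe sets. The members' median was 0.64 against 0.09 for all tested, and a small group of members reaches down to -2.31.

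Against shared arrays the members' medians were 0.15 for aba2 minus Col-0, -0.52 for ABA2-OE minus Col-0 and 0.36 for aba2/GA20OX1-OE minus aba2. Over all probe sets with a mean of 7 or more the medians were 0.05, -0.03 and 0.01. The members' values use arrays of the rule and are values only. ABA2-OE lay below Col-0 in 143 of 178 members, a count with no share over all probe sets beside it. The ABA2-OE arrays were also dimmer, with a median log2 signal of 7.08, 7.07 and 7.03, against 7.09, 7.11 and 7.29 in Col-0.

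The listed genes of the gibberellin pathway could be followed only in part. None of the 91 named members was in a list, but 82 members had no entry in the annotation, and none of 14 listed gibberellin synthesis and 7 inactivation genes was named by it, so whether genes of the pathway are among the members was not tested. Of 12 genes of gibberellin perception and DELLA control 6 were tested, the receptors GID1A, GID1B and GID1C, the F-box genes SLY1 and SLY2 and the DELLA modifier SPY, and 0 were called in the 3 comparisons, with median differences of -0.29, -0.01 and -0.15. The lowest adjusted p among these 6 genes was 0.16, for SPY in aba2/GA20OX1-OE minus aba2/ga20ox1. In that comparison, where 3.91% of all probe sets were called, the gibberellin-regulated GASA family gene AT5G59845 rose by 1.27 (adjusted p 0.011), with 7.61, 8.12 and 7.51 in aba2/GA20OX1-OE, against 6.26, 6.32 and 6.85 in aba2/ga20ox1. AT1G22690, of the same family, fell by 0.85 (adjusted p 0.022). No listed gene was called by limma in GA20OX1-OE minus ga20ox1 or GA20OX1-OE minus Col-0, where 21 (0.132%) and 3 (0.0188%) of all probe sets were. With the replicate number as a block these totals were 44 and 7, and at an unadjusted p under 0.05 they were 1571 and 2010. The root marker PYK10 fell by 1.31 in aba2/GA20OX1-OE (adjusted p 0.0049), and the summed linear signal of the annotated root markers was 317 to 727 there, against 973 to 1227 in aba2/ga20ox1. PYK10 made up most of that sum, with a mean log2 signal of 8.68 in aba2/GA20OX1-OE, against 5.63 for EXPA18 and 2.62 for EXPA7. EXPA18, the other root marker tested, went the other way, higher by 0.45 (adjusted p 0.68), and EXPA7 was too low to be tested. The part that root tissue has in the members' values was not tested.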

How the data were processed

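The authors deposited 1 table of array signals, in the unit intensity on a linear scale, made with MAS5 per the submitters' processing notes. With 2% of values trimmed at each end the mean was 500 on every array, the median signal 130 to 188 and the correlation within genotypes 0.958 to 0.983, and no columns were identical. The number of arrays limits the precision. The scaling settings were not given in the sources used here.

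Control probe sets (64 of 22810) were left out and values logged to base 2 with no further normalization. The members were found by group means. The test was limma 3.58.1 run in R 4.3.3 (lmFit, eBayes with trend), in 1 fit of 7 genotype means over 21 arrays, without the 30% of probe sets of lowest mean (15923 kept, bound 5.26), two-sided, with Benjamini-Hochberg adjustment at 0.05. All 178 members passed that filter, which the rule's minimum of 7 ensures. The test was checked on simulated data. Tables used Python 3.11.15, pandas 2.3.3, numpy 2.4.6 and matplotlib 3.10.9. The annotation supplied with the series names 13436 probe sets with 1 gene.

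The members and lists were chosen with earlier results of these data known. Named genes are the 20 with the largest smallest difference, up to 10 calls each way in aba2 minus ABA2-OE, 3 on each side of the threshold, 3 unnamed probe sets, family members and listed genes that were called. Other names were chosen after their values were seen, the genes with a symbol, AT3G06160 and AT3G28500 among them.

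Deviations from group means of same-numbered arrays correlated at 0.13, 0.14 and 0.23 between GA20OX1-OE and ga20ox1 and at 0.11, 0.13 and 0.23 between GA20OX1-OE and Col-0, which is why the blocked counts stand beside those results. In the other comparisons they were -0.25 to 0.06. No label says what a number stands for. The alternatives were no trend, array quality weights, the block, only the groups compared, other filters (none, or the lowest 50%), a pseudocount of 20.1, quantile normalization, other thresholds of the rule (0.4, 0.6, no minimum) and leaving out arrays. Array medians, as scaling or covariate, and the removal of replicate 3 of Col-0 and ga20ox1 were added after seeing the data.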

Additional observations from a re-analysis of the deposited data

How the results depend on the processing

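Leaving out 1 array at a time gave 79 to 280 probe sets that met the rule against 178, the lowest without ga20ox1 replicate 1 and the highest without ga20ox1 replicate 3. It was 117 without Col-0 replicate 2 and 107 without aba2/GA20OX1-OE replicate 3. The count was 87 with quantile normalization, 48 with equal array medians, 73 with the array median as covariate, 409 without replicate 3 of Col-0 and of ga20ox1 (167 of them members), 373 and 83 at thresholds of 0.4 and 0.6, and 1059 with no minimum signal. Members higher in aba2 than in ABA2-OE were 8 to 58 with 1 array left out, against 45. They were 83 with array quality weights, 68 with the replicate block, 79 with only the groups compared, 28 with quantile normalization and 8 with the covariate. Members lower there were 5 to 10 with 1 array left out, against 10, the fewest without ABA2-OE replicate 2 and 6 without aba2 replicate 1.

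Over all probe sets, aba2 minus ABA2-OE had 2192 calls, 949 to 2521 with 1 array left out, 4694 with array quality weights and 1108 with the covariate. GA20OX1-OE minus ga20ox1 had 21 calls, 4 to 47 with 1 array left out, 9 with no trend, 2394 with array quality weights, 44 with the replicate block, 4 with only the groups compared, 12 without the lowest 50%, 35 without replicate 3 of aba2/GA20OX1-OE and replicate 2 of GA20OX1-OE and 75 without replicate 3 of Col-0 and of ga20ox1. GA20OX1-OE minus Col-0 had 3 calls, 0 to 7 with 1 array left out, 7 with the replicate block, 1 with only the groups compared, 8 without replicate 3 of aba2/GA20OX1-OE and replicate 2 of GA20OX1-OE, and 0 with no trend, weights, no filter, equal array medians or without replicate 3 of Col-0 and of ga20ox1. In aba2/GA20OX1-OE minus aba2/ga20ox1 there were 623 calls (435 higher, 188 lower), 311 to 727 with 1 array left out, 1153 with weights, 979 with the replicate block, 362 with only the groups compared, 320 without replicate 3 of aba2/GA20OX1-OE and replicate 2 of GA20OX1-OE and 354 with the covariate. Its split was 296 higher and 249 lower after quantile normalization and 192 and 490 with equal medians. In every comparison the arrays share only a number, so no label gives the replicate block a pairing. In aba2 minus ABA2-OE 253309_at (-0.23) ranged from -0.46 to 0.06 with 1 array left out, turning to 0.06 without aba2 replicate 1, and 261701_at and 250233_at to -0.36 and -0.35 with the covariate, none of them called. The cause of these changes was not tested. Signals near the bound of 5.26 limit what can be said of AT1G66850.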

Other observations

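A few members with no gene name had patterns of their own, chosen after their values were seen. 255149_at was at 9.34, 9.98 and 10.23 in aba2/GA20OX1-OE, against 7.33, 7.25 and 7.22 in aba2/ga20ox1. It was at 7.58, 6.98 and 7.45 in GA20OX1-OE, against 6.0, 6.83 and 6.68 in ga20ox1 and 6.23, 6.60 and 6.86 in Col-0. The groups did not overlap in any of these comparisons, and the differences were 0.62, 0.48 and 2.20 with the array median as covariate. 264147_at was at 9.62, 10.49 and 9.91 in aba2/GA20OX1-OE, against 7.83, 7.71 and 7.94 in aba2/ga20ox1, and it fell by 0.71 in aba2 relative to ABA2-OE (adjusted p 0.0293 by limma).

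Members lower in aba2 than in ABA2-OE by the widest margin were 253172_at and 260957_at. 253172_at was at 7.35, 6.69 and 6.81 in aba2, against 9.30, 9.60 and 8.88 in ABA2-OE (-2.31, adjusted p 4.43e-05). 260957_at was at 7.37, 7.22 and 7.70 in aba2, against 9.68, 9.80 and 9.16 in ABA2-OE (-2.11, adjusted p 1.61e-05). In both, GA20OX1-OE was also above ga20ox1, by 1.33 and 1.36, and both met the rule with the array median as covariate.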
